A study of Mus musculus with 11 samples.

Results

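Whey is the soluble fraction of milk, and 4 mouse genes for proteins secreted into it were followed here across 11 mammary gland libraries: Wap, Trf, Lao1 and Glycam1. They were taken by name out of 22196 genes that had an identifier match, and all 4 were among the 12716 genes with enough reads to be tested. Inguinal mammary glands of 6 Knockout mice (Tsc1-fl/fl; Adipoq-Cre-Tg/+) were compared with those of 5 Wild-Type mice (Tsc1-fl/fl; Adipoq-Cre-+/+), so both groups carried the floxed Tsc1 allele and only the Knockout mice carried the Cre transgene. Adipoq-Cre is driven by the adiponectin promoter, which is active in adipocytes. All mice received normal chow, carried the label PND16.5, and were killed 16 days post-delivery. The labels also name access to milk, and they state neither whose age the postnatal day gives nor, in so many words, that the animals were lactating. RNA came from the whole gland, so that fewer cells of a type and less RNA per cell cannot be told apart.

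Most protein secreted into milk is made by the alveolar epithelial cells of the gland rather than by its adipocytes. Which cells made the RNA of each member was not measured here. Prolactin, acting through its receptor and the transcription factor STAT5, drives the transcription of many milk protein genes in late pregnancy and lactation. Wap encodes whey acidic protein, a small cysteine-rich protein with disulfide core domains that is among the most abundant whey proteins of rodents. Trf encodes transferrin, which carries iron in plasma and is also secreted into mouse milk. Lao1 encodes an L-amino acid oxidase of mouse milk that releases hydrogen peroxide and acts against bacteria. Glycam1 encodes a mucin-like secreted glycoprotein that occurs in milk and is also made by the high endothelial venules of lymph nodes, where it carries ligands for L-selectin.

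The positions are those of GENCODE M21 on GRCm38. Wap (ENSMUSG00000000381) lies on the minus strand of chromosome 11 from 6635482 to 6638637. Trf (ENSMUSG00000032554) lies on the minus strand of chromosome 9 from 103204001 to 103230444. Lao1 (ENSMUSG00000024903) lies on the plus strand of chromosome 4 from 118961578 to 118968912. Glycam1 (ENSMUSG00000022491) lies on the minus strand of chromosome 15 from 103562759 to 103565081. The 4 genes are thus on 4 chromosomes and have no shared locus.

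Stretches of 100 codons of the shortest 2 members are shown because Wap is rich in cysteine codons and Glycam1 has none. In the Wap sequence the capitals mark in-frame cysteine codons (TGT or TGC), and in the Glycam1 sequence they mark in-frame serine and threonine codons, whose residues can carry the O-linked sugars of a mucin. Both are GENCODE M21 sequences, printed 5′ to 3′, with the Wap stretch ending at the last codon before the stop and the Glycam1 stretch beginning at the start codon.
Wap, codons 35 to 134: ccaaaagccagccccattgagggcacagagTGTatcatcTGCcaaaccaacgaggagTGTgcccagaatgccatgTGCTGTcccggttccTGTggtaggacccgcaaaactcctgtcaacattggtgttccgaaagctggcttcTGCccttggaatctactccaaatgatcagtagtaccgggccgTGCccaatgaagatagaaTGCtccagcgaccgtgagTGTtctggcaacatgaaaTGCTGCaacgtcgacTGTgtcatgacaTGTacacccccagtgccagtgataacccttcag
Glycam1, codons 1 to 100: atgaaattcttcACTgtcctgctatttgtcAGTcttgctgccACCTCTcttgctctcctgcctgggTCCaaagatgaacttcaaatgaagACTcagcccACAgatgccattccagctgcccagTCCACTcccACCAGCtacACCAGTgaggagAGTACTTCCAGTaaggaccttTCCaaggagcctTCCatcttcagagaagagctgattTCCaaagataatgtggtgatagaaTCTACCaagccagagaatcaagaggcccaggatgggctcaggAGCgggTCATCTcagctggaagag
The stretches shown hold 14 marked codons for Wap and 25 for Glycam1. Over its whole length Wap had 15 cysteine codons among 134, or 11.2%, a higher share than in 99.0% of 21706 genes, against a median of 2.13%. Glycam1 had 0 cysteine codons and 42 serine or threonine codons among 151, or 27.8%, a higher share than in 99.8% of those genes, against a median of 13.3%, while Wap was at that median with 13.4%. Trf had 38 cysteine codons among 697 (5.45%) and Lao1 had 8 among 523 (1.53%). Cysteine codons were thus above the median in Wap and Trf and below it in Lao1 and Glycam1.

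The 250 bases upstream of the start site are shown for Wap and Glycam1, as RefSeq places it on GRCm38.p6, because both are milk genes that were searched for the STAT5 consensus TTCNNNGAA and for TATAAA on both strands. No match of one motif overlapped the other. Capitals mark matches. The Wap window is chr11:6638650-6638899 and the Glycam1 window is chr15:103565082-103565331, both on the minus strand.
Wap upstream window: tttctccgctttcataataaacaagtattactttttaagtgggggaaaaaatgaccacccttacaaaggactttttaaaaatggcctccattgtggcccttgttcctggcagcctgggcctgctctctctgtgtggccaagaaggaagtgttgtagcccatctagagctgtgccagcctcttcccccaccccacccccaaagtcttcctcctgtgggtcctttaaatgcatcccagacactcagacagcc
Glycam1 upstream window: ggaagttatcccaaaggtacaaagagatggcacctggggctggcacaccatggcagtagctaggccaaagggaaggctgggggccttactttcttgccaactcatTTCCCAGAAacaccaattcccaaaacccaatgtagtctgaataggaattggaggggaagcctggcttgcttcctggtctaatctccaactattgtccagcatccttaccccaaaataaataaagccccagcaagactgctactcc
The Glycam1 window held 1 match to TTCNNNGAA, TTCCCAGAA, from 145 to 137 bases before the start site. The Wap window held 0 matches to either motif, and so did the Lao1 window. The Lao1 window lies in the first exon of GENCODE, so it is not upstream of the GENCODE start. Among 32851 promoter windows of this length, 7.02% held TTCNNNGAA and 12.4% held TATAAA. Trf was not searched. These matches are letters in a sequence, and binding was not measured.

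The libraries held between 25817975 and 37894237 estimated reads. CPM, as used here, are read counts scaled to library size after adjustment by edgeR's TMM factors, except where library totals alone are named. Tsc1 itself was at 10.1 ± 1.33 CPM in the 6 Knockout samples and 10.7 ± 1.11 CPM in the 5 Wild-Type samples (mean ± SD). Its edgeR adjusted p was 0.772. The libraries are therefore named by their genotype labels, and the share of Tsc1 RNA that came from adipocytes was not measured. Markers of other tissues set some libraries apart. The 8 skeletal muscle markers summed to 2130 CPM in Knockout 1 and to between 1.82 and 322.1 CPM in the other libraries. The 10 lymph node markers summed to 62.5 CPM in Wild-Type 5, 41.0 in Wild-Type 2, 18.1 in Wild-Type 4 and 10.2 in Knockout 1, and to between 2.11 and 4.27 CPM elsewhere. Genotype differences of single members that moved by more than 1.5 times without one of them are given both ways, and ranges over all left-out libraries stand at the end.

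The 4 genes took a large part of each library. Together they held 17.1% ± 1.15 (SD, n = 6) of the reads of a Knockout gland and 18.4% ± 1.36 (SD, n = 5) of those of a Wild-Type gland. The difference of 1.32 percentage points was about as large as 1 SD of either group. Knockout 5 had the lowest share of all libraries at 14.8%, and without it the difference was -0.878 percentage points (Knockout minus Wild-Type). On the TPM scale, which corrects for length, the 4 genes held 25.1% ± 1.59 in Knockout and 26.8% ± 1.39 in Wild-Type glands. For each unit of summed casein TPM there were 0.526 ± 0.0313 units of the 4 genes in Knockout and 0.543 ± 0.0278 in Wild-Type glands. This ratio of whey genes to caseins differed between genotypes by less than 1 SD of either group.

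Levels of different genes were compared as TPM. Wap ranged from 197131 to 258944 TPM and was the most abundant of all genes in each of the 11 libraries. Trf ranged from 12315 to 21289 TPM and ranked 7 or 8 among all genes. Glycam1 ranged from 1749 to 3776 TPM and ranked between 13 and 22. Lao1 ranged from 1067 to 1811 TPM and ranked between 19 and 28. The order Wap, Trf, Glycam1, Lao1 held in all 11 libraries. The median ratio of Wap to Trf was 14.9 (range 9.26 to 18.4), and that of Trf to Glycam1 was 6.65 (range 4.33 to 9.98). Glycam1 and Lao1 were the closest neighbours: their ranges over libraries overlapped, with a median TPM ratio of 1.63 and a range from 1.28 to 2.82. For comparison, the mean TPM over libraries was 139105 for Csn2 (beta casein), 19286 for Lalba (alpha-lactalbumin, the whey protein needed for lactose synthesis) and 393 for Ltf (lactoferrin, the other iron-binding protein of milk). Trf thus stood well above Ltf in these glands. The main listed transcripts of all 4 members were as long as their coding sequences, at 405 bases for Wap, 456 for Glycam1, 1572 for Lao1 and 2094 for Trf, and 87.3% of all listed lengths were multiples of 3. All TPM values and ranks here, Wap as the most abundant gene included, therefore rest on coding lengths. The shortest genes depend most on this length correction.

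**Figure D1:**
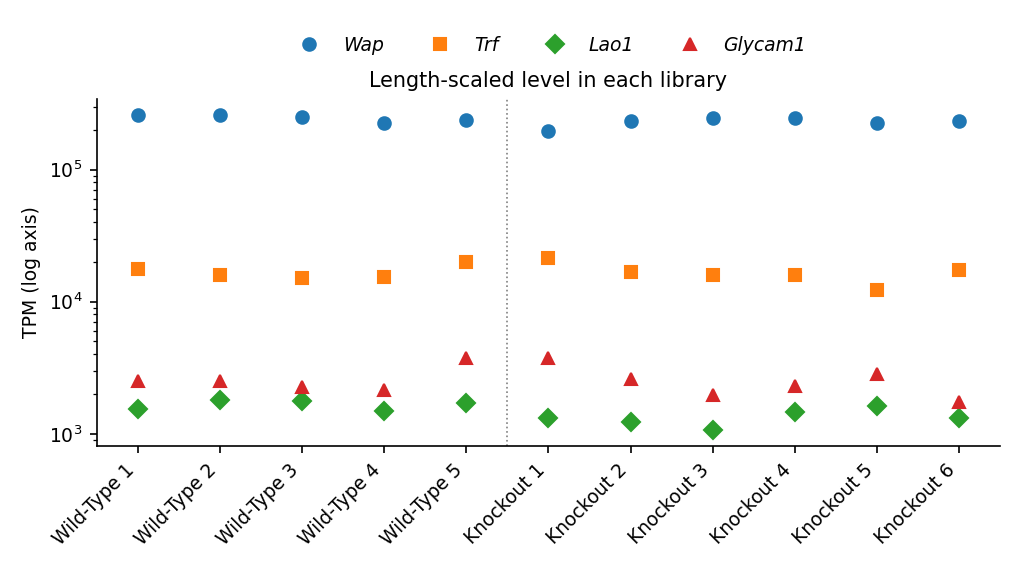
Level of each whey gene in each library as TPM on a log axis, with the 5 Wild-Type libraries left of the dotted line and the 6 Knockout libraries right of it. The 4 genes keep the same order in all 11 libraries, and Glycam1 (triangles) comes nearest to Trf (squares) in Knockout 1, Knockout 5 and Wild-Type 5.

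All 4 genes were lower on average in Knockout than in Wild-Type glands, and for none of them did the difference pass edgeR's quasi-likelihood test with Benjamini-Hochberg adjustment over all genes. The threshold was an adjusted p of 0.05, and 7 of the 12716 genes tested (0.055%) passed it, 6 of them (0.0472%) higher and 1 of them (0.00786%) lower in Knockout glands. At an unadjusted p under 0.05, 1 of the 4 members passed by edgeR, against 12.4% of all genes. DESeq2 called 0 of the 4, against 135 of 14058 genes (0.96%), and put 3 of the 4 at an unadjusted p under 0.05, against 12.8% of those genes. The median log2 fold change of the 4 was -0.32, and that of all genes was -0.01. Of all genes, 51.7% had a log2 fold change below 0. Ranges of CPM that do not overlap between genotypes occurred in 1.32% of all genes, 0.535% being lower in Knockout glands, and in none of the 4 members.

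Wap, the most abundant of the 4 by TPM and second to Trf in mean CPM, was at 102658, 98904, 106227, 69547 and 86252 CPM in the 5 Wild-Type libraries. The 6 Knockout libraries ran from 52256 to 90110 CPM with a median of 75083. The lowest values were those of Knockout 1 and Knockout 2, both below every Wild-Type library, and Wild-Type 4 and Wild-Type 5 lay inside the Knockout range. The means were 74083 ± 13394 CPM (SD, n = 6) and 92718 ± 14986 CPM (SD, n = 5). The log2 fold change was -0.32 ± 0.15 (SE), with a 95% interval from -0.65 to 0.0048 and an edgeR adjusted p of 0.411. Without Knockout 1, the library with the most muscle marker RNA, it was -0.23. The genotype groups therefore overlapped for Wap and the interval just reached 0.

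Trf, for transferrin, was at 111067, 95481, 97526, 74302 and 112091 CPM in the 5 Wild-Type libraries. The 6 Knockout libraries ran from 64749 to 88599 CPM with a median of 84843. Of the Wild-Type libraries 4 lay above all Knockout libraries, and Wild-Type 4 lay below 5 of them. The means were 81281 ± 9124 CPM (SD, n = 6) and 98093 ± 15309 CPM (SD, n = 5). The log2 fold change was -0.27 ± 0.13 (SE), with a 95% interval from -0.54 to 0.0024 and an edgeR adjusted p of 0.407. As TPM, Trf was at 16588 ± 2900 in Knockout and 16793 ± 2068 in Wild-Type glands, a difference far inside the spread. Over 99.8% of Trf reads went to 1 of its 6 listed transcripts. Of its 31-base words, 89.6% are shared with Gm20425, a predicted gene that overlaps it on the same strand and was not counted separately here.

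Lao1, for the milk L-amino acid oxidase, had the largest difference of the 4. It was at 6926, 7725, 8247, 5155 and 6768 CPM in the 5 Wild-Type libraries. The 6 Knockout libraries ran from 3681 to 6091 CPM with a median of 4431. Of the Knockout libraries 4 lay below all Wild-Type libraries, and 4 of 5 Wild-Type libraries lay above all Knockout libraries; the overlap came from Knockout 4 and Knockout 5 on one side and Wild-Type 4 on the other. The means were 4747 ± 976 CPM (SD, n = 6) and 6964 ± 1177 CPM (SD, n = 5). The log2 fold change was -0.55 ± 0.15 (SE), with a 95% interval from -0.89 to -0.22, and stood at percentile 4.29 of all genes tested. The edgeR adjusted p was 0.263, with an unadjusted p of 0.00345. DESeq2 gave an adjusted p of 0.0515, and over all alternatives with every library the adjusted p ran from 0.0515 to 0.580. As TPM, Lao1 was at 1335 ± 190 in Knockout and 1664 ± 144 in Wild-Type glands.

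Glycam1, the mucin-like glycoprotein, was at 1371, 1305, 1306, 888 and 1877 CPM in the 5 Wild-Type libraries. The 6 Knockout libraries ran from 769 to 1327 CPM with a median of 1083. Wild-Type 5 was the highest library of all, Wild-Type 4 was lower than 5 of the 6 Knockout libraries, and the groups overlapped over most of their range. The means were 1077 ± 213 CPM (SD, n = 6) and 1349 ± 352 CPM (SD, n = 5). The log2 fold change was -0.33 ± 0.18 (SE), with a 95% interval from -0.72 to 0.07 and an edgeR adjusted p of 0.490. Without Wild-Type 5 it was -0.18, with an edgeR adjusted p of 0.731. As TPM, Glycam1 was at 2528 ± 711 in Knockout and 2640 ± 654 in Wild-Type glands.

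**Figure D2:**
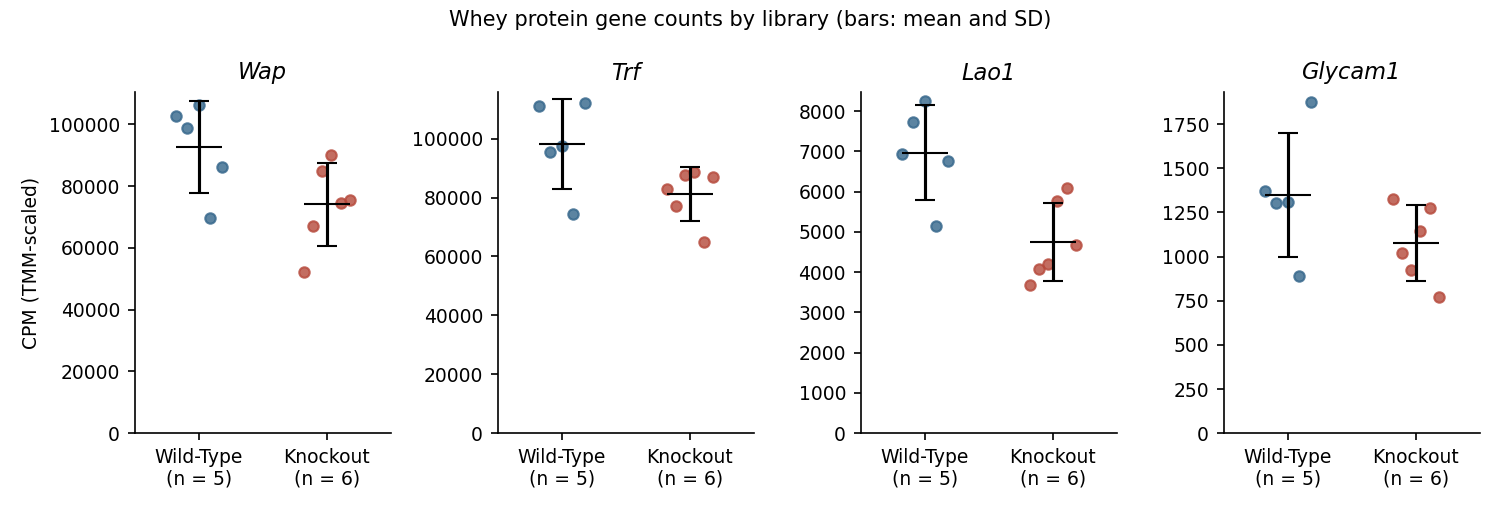
CPM after TMM scaling of each whey gene, 1 point per library, for Wild-Type (n = 5) and Knockout (n = 6), with the mean and SD as bars and every axis starting at 0. The Knockout mean is the lower one for all 4 genes, and the points of the 2 genotypes overlap in all 4 panels.

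The size of these differences depended on how libraries were put on a common scale. TMM, edgeR's default scaling, gave factors from 0.970 to 1.22 in Knockout and from 0.842 to 1.085 in Wild-Type libraries. With library totals alone, the median log2 fold change of all genes moved from -0.01 to 0.18. On those totals the log2 fold change was -0.13 for Wap, -0.07 for Trf, -0.36 for Lao1 and -0.11 for Glycam1. Relative to the median of all genes these values were -0.32, -0.25, -0.54 and -0.30. The change of scale shifted nearly all genes alike, so the values relative to the median had to come out close to those on the TMM scale. As shares of the library the differences were smaller. The setting was added after the data were seen.

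Cell type markers were summed over the same libraries. The 12 adipocyte markers came to 1550 to 2016 CPM in Knockout and to 1106 to 1568 CPM in Wild-Type glands, with a median log2 fold change of 0.35. The 10 luminal epithelial markers came to 785 to 1081 CPM in Knockout and to 576 to 991 CPM in Wild-Type glands, with a median of 0.30. The sums of both lists overlapped between genotypes. The medians were 0.23 for 8 myoepithelial markers and 0.35 for 6 fibroblast markers, all of them above 0, and 0.21 for 9 involution genes, 7 of them above 0. They were 0.06 for 6 endothelial and -0.00064 for 6 macrophage markers. Of these 7 lists, the 5 with medians above 0.2 thus lay on the opposite side of 0 from the 4 whey genes. Lists of immune tissue lay on the same side as the whey genes, with medians of -2.92 for the 5 tested of 8 B cell markers, -1.39 for 6 of 8 T cell markers and -2.84 for 3 of 10 lymph node markers. At an unadjusted p under 0.05 were 5, 2 and 2 of these, against 12.4% of all genes, and edgeR and DESeq2 called 0. The lymph node marker Madcam1 differed little, with a log2 fold change of -0.08. The T cell markers summed to 1.74 to 10.5 CPM in Knockout and to 1.75 to 39.1 CPM in Wild-Type glands. The B cell markers summed to 88.6 CPM in Wild-Type 5, 66.3 in Wild-Type 2 and 19.8 in Wild-Type 4. Wild-Type 1 at 2.21 CPM and Wild-Type 3 at 4.62 CPM lay inside the Knockout range of 1.03 to 16.4 CPM. Both also lay inside the Knockout range for the T cell and lymph node sums. The higher values of these lists were thus not shared by all Wild-Type libraries. The 8 skeletal muscle markers had a median of 2.21, with 0 at an unadjusted p under 0.05. By edgeR no marker of the first 7 lists passed the adjusted threshold. At an unadjusted p under 0.05 were 6 of 12 adipocyte and 4 of 10 luminal markers, against 12.4% of all genes. The counts were 2 of 8 myoepithelial, 2 of 6 fibroblast, 3 of 9 involution, 0 of 6 endothelial and 1 of 6 macrophage genes. Of the adipocyte markers 10 were above and 2 below 0, and of the luminal markers 9 and 1 (51.7% of all genes were below 0). DESeq2 called 2 of the 12 adipocyte markers, against 0.96% of all genes, and 0 markers of the other 6. Each of the adipocyte and luminal markers had reads in every library. The part of any of these cell types in the lower whey gene values was not tested.

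Ratios between members within a library do not depend on scaling. Of the 6 ratios, none passed an adjusted p of 0.05 between genotypes in an exact two-sided permutation test over every way of assigning 6 of the 11 libraries to Knockout, where the smallest possible p is 0.00216. The log2 ratio of Wap to Lao1 was 3.97 ± 0.24 (SD) in 6 Knockout and 3.74 ± 0.09 (SD) in 5 Wild-Type libraries, a difference of 0.23 (exact permutation p = 0.0693, 0.416 adjusted over the 6 ratios). Trf to Lao1 differed by 0.30 (exact permutation p = 0.167, adjusted 0.50), and Lao1 to Glycam1 differed by -0.25 (exact permutation p = 0.294, adjusted 0.589). With all libraries the 3 ratios with Lao1 had the largest differences, each in the direction of less Lao1 in Knockout glands. Wap to Trf differed by -0.06, Wap to Glycam1 by -0.02 and Trf to Glycam1 by 0.05, with adjusted exact permutation p of 0.942 for each. Without Knockout 1, the difference was 0.04 for Wap to Trf, 0.14 for Wap to Glycam1 and -0.12 for Lao1 to Glycam1, so that this order did not hold without that library. Without Wild-Type 5, the difference was -0.17 for Wap to Glycam1, -0.03 for Trf to Glycam1 and -0.38 for Lao1 to Glycam1.

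Each member was also set against the sum of the 5 casein genes, the main nutritional proteins of milk. The log2 ratio of Lao1 to the caseins was 0.29 lower in Knockout libraries (log2 difference -0.29, exact permutation p = 0.0130, 0.0519 adjusted over the 4 ratios). For Wap the difference was -0.06 (exact permutation p = 0.329, adjusted 0.658), for Trf it was 0.00 (exact permutation p = 0.991, adjusted 0.991) and for Glycam1 it was -0.04 (exact permutation p = 0.846, adjusted 0.991). The caseins themselves had log2 fold changes of -0.24 ± 0.12 (SE) for Csn1s1, -0.27 ± 0.13 for Csn2, -0.31 ± 0.16 for Csn1s2a, -0.27 ± 0.15 for Csn1s2b and -0.22 ± 0.13 for Csn3, and none passed the adjusted threshold in edgeR. The estimates for Wap, Trf and Glycam1 were thus close to those of the caseins, and that for Lao1 was farther below 0, with an adjusted p just above 0.05 for the ratio.

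**Figure D3:**
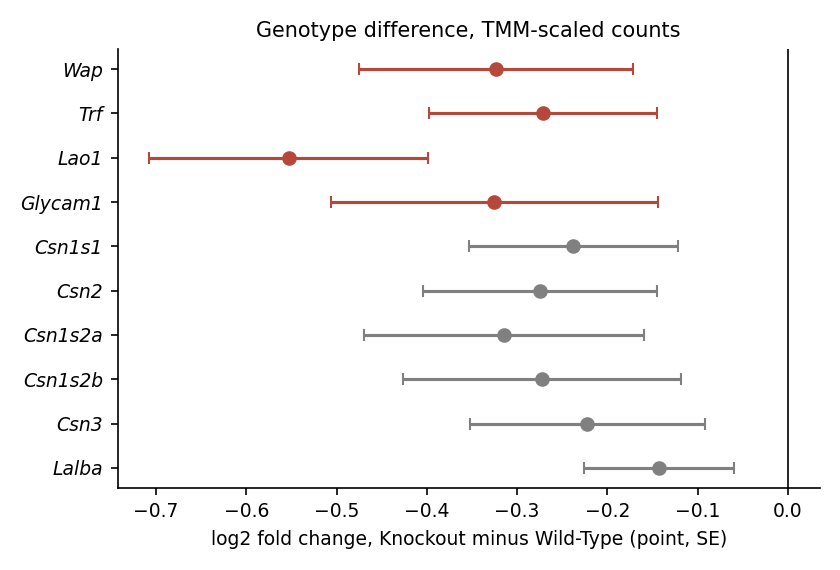
Log2 fold change between Knockout and Wild-Type libraries from TMM-scaled counts, with the edgeR estimate as a point and its SE as a bar, for the 4 whey genes in red and for 5 caseins and Lalba in grey. All 10 estimates are below 0, Lao1 is farthest from 0 at -0.55 and Lalba is nearest at -0.14.

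Over the 11 libraries Wap and Lao1 varied together on the TMM scale. Their log2 CPM had a Pearson r of 0.837 (permutation p = 0.00116, 0.00696 adjusted over the 6 combinations of members) and a Spearman rho of 0.864 (permutation p = 0.00124, adjusted 0.00744). Without the 2 libraries farthest from the Wap median r was 0.710, and after each genotype mean was subtracted it was 0.758 (adjusted permutation p = 0.0376). Within the 6 Knockout libraries r was 0.643 (exact permutation p = 0.171). Wap and Trf gave an r of 0.623 (adjusted permutation p = 0.118) and a rho of 0.809 (adjusted permutation p = 0.0107). The libraries share their scaling factor across genes, and this relation changed with it: with library totals alone r was 0.550 for Wap and Lao1 and -0.03 for Wap and Trf, and with log2 TPM it was 0.318 and -0.32. By Pearson's r the relation of Wap and Lao1 alone passed the adjusted threshold on the TMM scale, and none of the 6 combinations passed it with library totals or log2 TPM.

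**Figure D4:**
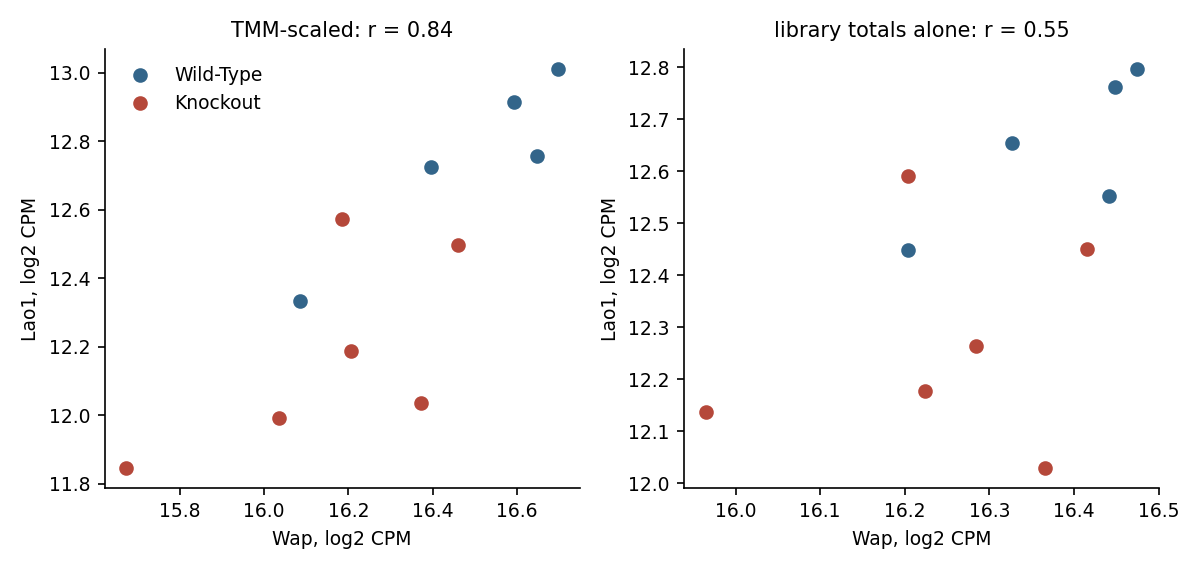
Lao1 against Wap as log2 CPM in the 6 Knockout and 5 Wild-Type libraries, with TMM scaling on the left and library totals alone on the right. The points follow a line more closely with TMM scaling (r = 0.837) than with totals alone (r = 0.550).

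The other members were less closely related. Glycam1 gave an r of 0.264 with Wap (adjusted permutation p = 0.434), 0.505 with Trf (adjusted permutation p = 0.153) and 0.537 with Lao1 (adjusted permutation p = 0.153). Without Wild-Type 5 the r of Glycam1 and Trf was 0.290, and without Knockout 1 that of Glycam1 and Wap was 0.531. Trf and Lao1 gave an r of 0.490 (adjusted permutation p = 0.153). The rho of Trf was 0.618 with Lao1 and 0.627 with Glycam1 (adjusted permutation p = 0.0733 for both), that of Wap with Glycam1 was 0.382 (adjusted permutation p = 0.249), and that of Lao1 with Glycam1 was 0.473 (adjusted permutation p = 0.176). Without the 2 libraries farthest from the median of the first gene, r was 0.735 for Wap and Trf, 0.526 for Wap and Glycam1, 0.703 for Trf and Lao1, 0.597 for Trf and Glycam1 and 0.756 for Lao1 and Glycam1. Within the 6 Knockout libraries r was -0.42 for Wap and Glycam1, -0.49 for Trf and Glycam1, -0.39 for Trf and Lao1, 0.215 for Wap and Trf and 0.153 for Lao1 and Glycam1 (exact permutation p from 0.349 to 0.779). After each genotype mean was subtracted, r was 0.442 for Wap and Trf, 0.016 for Wap and Glycam1, 0.111 for Trf and Lao1, 0.336 for Trf and Glycam1 and 0.339 for Lao1 and Glycam1, with adjusted permutation p of at least 0.471. After that subtraction all 5 values of r were nearer to 0 than over all libraries, while within Knockout alone 3 of the 5 were below 0.

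The summed caseins separated the members further. Wap followed them with an r of 0.963 (permutation p = 1e-05, the smallest that 100000 pairings can give, 4e-05 adjusted over the 4 members) and a rho of 0.955. Lao1 gave an r of 0.891 (permutation p = 0.00013, adjusted 0.00026) and a rho of 0.936. Trf gave an r of 0.501 (permutation p = 0.114, adjusted 0.152) with a rho of 0.700 (adjusted permutation p = 0.0278), and Glycam1 an r of 0.323 (permutation p = 0.334, adjusted 0.334). Without the 2 libraries farthest from the median of the member in question, r was 0.918 for Wap, 0.804 for Lao1, 0.767 for Trf and 0.321 for Glycam1. With library totals alone r was 0.789 for Wap and 0.691 for Lao1 but -0.50 for Trf and -0.24 for Glycam1. With log2 TPM r was 0.591 for Wap, 0.603 for Lao1, -0.70 for Trf and -0.23 for Glycam1. On the TMM scale with each genotype mean subtracted it was 0.945, 0.840, 0.247 and 0.083. Wap and Lao1 thus had a positive r with the caseins in all of these settings, smaller without the TMM factors, and the sign for Trf and Glycam1 depended on the scale. Values of a library share its total, so that these correlations are not independent of each other.

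The genes whose log2 CPM over the 11 libraries was most like each member were read from 5284 genes with a mean of at least 10 CPM, as a description without a test. For Wap they were Csn2 (r = 0.964), Csn1s2a (0.962) and Csn1s2b (0.961), all caseins. For Trf they were Tm9sf4 (r = 0.947), Trp53bp1 (0.908) and Gnas (0.903), of which Gnas encodes a stimulatory G protein subunit. For Lao1 they were Cidea (r = 0.953), Ubl7 (0.951) and Dhodh (0.949), where Cidea is a lipid droplet protein and Dhodh an enzyme of pyrimidine synthesis. For Glycam1 they were Ndufb6 (r = 0.855), Tsn (0.849) and Rnf121 (0.847). An r above 0.8 was reached with 2.10% of the genes for Wap, 1.14% for Trf, 2.37% for Lao1 and 0.303% for Glycam1, so Glycam1 had the fewest close matches.

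Glycam1 is also a gene of lymph node vessels, and the inguinal gland contains a lymph node. Of the 10 lymph node markers 3 had enough reads to be tested (Ccl21a, Madcam1 and Ltb), and the sums lay between 2.11 and 10.2 CPM in Knockout samples and between 2.63 and 62.5 CPM in Wild-Type samples. None of the 3 passed the adjusted threshold in edgeR or DESeq2. Their log2 fold changes were -3.66 for Ccl21a and -2.84 for Ltb, but -0.08 for Madcam1. Wild-Type 5, with the highest sum, also had the highest Glycam1 CPM, whereas Wild-Type 2, with a sum of 41.0 CPM, had 1305 CPM of Glycam1, close to the 1306 CPM of Wild-Type 3 with a sum of 4.27. Chst4 and Fut7, which modify L-selectin ligands in high endothelial venules, had 14 and 18 reads in Wild-Type 5, 17 and 15 in Wild-Type 2, and 0 to 6 and 0 to 12 in the other libraries. Glycam1 had between 27012 and 59752 reads in each library, including those in which Chst4 was at 0. The log2 marker sum and log2 Glycam1 gave an r of 0.481 (permutation p = 0.137) and a rho of 0.327 (permutation p = 0.326) over 11 libraries, -0.09 without Wild-Type 5 and Wild-Type 2, and 0.143 without Wild-Type 5 alone. The part of lymph node RNA in the Wild-Type 5 value was not tested.

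**Figure D5:**
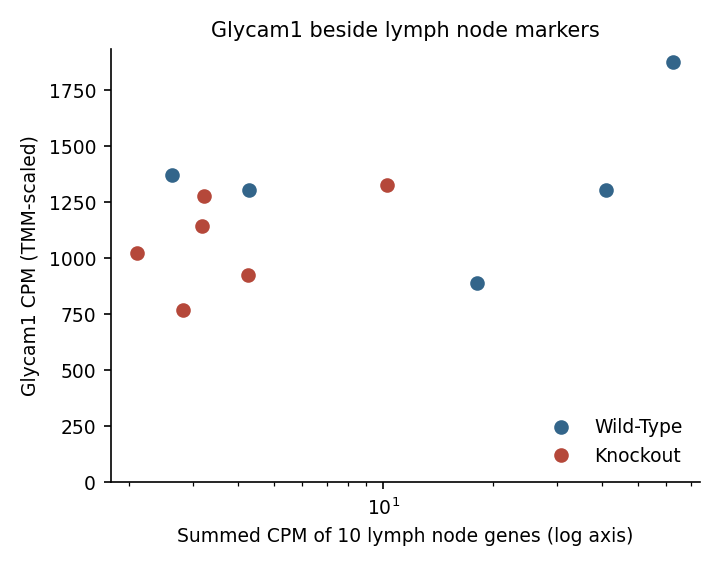
Glycam1 CPM (TMM scale) against the summed CPM of 10 lymph node genes on a log axis, 1 point per library. The library with the highest sum, 62.5 CPM, has the highest Glycam1 value at 1877 CPM. The other 10 libraries lie between 769 and 1371 CPM of Glycam1, over sums from 2.11 to 41.0 CPM.

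Genes with related roles were taken as lists. Over all genes, 12.4% were at an unadjusted p under 0.05 by edgeR, 51.7% had a log2 fold change below 0, and DESeq2 called 0.96%. Of 23 other milk protein genes 8 were above and 15 below 0 and edgeR called 0, with 4 at an unadjusted p under 0.05 and a median log2 fold change of -0.08, and DESeq2 called 2 (Spp1 and Muc15). Those with the smallest p were Muc15, a milk fat globule mucin, at 0.37 ± 0.09 (log2 fold change ± SE, edgeR adjusted p = 0.218), Spp1, for osteopontin, at 3.91 ± 1.16 (edgeR adjusted p = 0.280), and Ltf at 0.73 ± 0.30 (edgeR adjusted p = 0.360). These 3 were among the 8 above 0, while the caseins were among the 15 below 0, the side of the 4 whey genes. Spp1 had between 18 and 2377 reads a library.

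The Wap domain gives its name to the WFDC family of protease inhibitors and related proteins. Of 23 family genes 22 had an identifier and 7 were tested, with 0 called by edgeR or DESeq2, 1 at an unadjusted p under 0.05 (12.4% of all genes) and a median log2 fold change of -0.02. A count of 1 in 7 is near that background. Wfikkn1 was at -0.70 ± 0.24 (log2 fold change ± SE, edgeR adjusted p = 0.313), Wfdc3 at -0.19 ± 0.13 (adjusted p = 0.579) and Wfdc17 at 0.34 ± 0.36 (adjusted p = 0.742). Wfdc18, also a milk gene, had a mean of 9770 TPM and was by that measure between Trf and Glycam1. Tbrg4, a neighbour of Wap on chromosome 11, had a log2 fold change of -0.02 ± 0.12 (SE).

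Of 20 iron transport genes set beside Trf 19 were tested, 16 above and 3 below 0 (51.7% of all genes were below 0), with 0 called by edgeR, 4 at an unadjusted p under 0.05 (12.4% of all genes) and a median log2 fold change of 0.20. DESeq2 called 1 (0.96% of all genes), Tfr2, a transferrin receptor, which edgeR put at 2.40 ± 0.50 (log2 fold change ± SE, adjusted p = 0.137) on between 1 and 62 reads a library. Without Knockout 2 Tfr2 passed the threshold at 2.57 (edgeR adjusted p = 0.0472). Steap4, a metalloreductase, was at 0.52 ± 0.18 (edgeR adjusted p = 0.315), and Slc40a1, the iron exporter ferroportin, at 0.76 ± 0.31 (edgeR adjusted p = 0.360). Tfrc, the receptor for iron-loaded transferrin in most cells, was at 0.21 ± 0.19 (edgeR adjusted p = 0.672) and is named in addition to those chosen by p. Trf and the median of this list therefore lay on opposite sides of 0.

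Of 12 genes of amino acid oxidation and peroxide handling, set beside Lao1, 10 were tested, 3 above and 7 below 0 (51.7% of all genes were below 0), with 0 called by edgeR, 3 at an unadjusted p under 0.05 (12.4% of all genes) and a median log2 fold change of -0.10. DESeq2 called 1 (0.96% of all genes), Maob, a monoamine oxidase, which edgeR put at 1.12 ± 0.24 (log2 fold change ± SE, adjusted p = 0.137). Il4i1, an L-amino acid oxidase of immune cells, was at -2.43 ± 0.72 (edgeR adjusted p = 0.274). The 8 B cell markers summed to between 1.03 and 16.4 CPM in Knockout samples and to between 2.21 and 88.6 CPM in Wild-Type samples, highest in Wild-Type 5 and Wild-Type 2, and their part in the Il4i1 value was not tested. Without Wild-Type 5 the log2 fold change of Il4i1 was -1.97, without Wild-Type 2 it was -2.17, and without Knockout 1 it was -3.11. Prdx4, a peroxiredoxin of the secretory pathway, was at -0.31 ± 0.14 (edgeR adjusted p = 0.387).

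Of 12 genes of the prolactin and STAT5 pathway, all were tested, 8 above and 4 below 0 (51.7% of all genes were below 0), with 0 called by edgeR, 3 at an unadjusted p under 0.05 (12.4% of all genes) and a median log2 fold change of 0.11. DESeq2 called 1 (0.96% of all genes), Cish, a feedback inhibitor that STAT5 induces, which edgeR put at -1.0 ± 0.24 (log2 fold change ± SE, adjusted p = 0.218), the means being 5.74 ± 1.65 CPM (SD, n = 6) for Knockout and 11.5 ± 3.79 CPM (SD, n = 5) for Wild-Type libraries. Stat5a itself was at 0.43 ± 0.19 (edgeR adjusted p = 0.379) and Id2, a transcriptional regulator needed for alveolar development, at 0.59 ± 0.25 (edgeR adjusted p = 0.372). Cish was thus lower on average together with the 4 whey genes, while Stat5a was higher on average.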

How the data were processed

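Estimated counts of reads and TPM per transcript were deposited by the authors for each of 11 libraries, per the file headers, together with transcript and effective lengths (other values, in bases). The submitters' processing notes name Salmon 1.3.0, DESeq2 1.28.1 and GRCm38.p6. The authors also deposited a gene table of normalized values, treated as a signal on their scale. Column kit RNA and strand-specific libraries are per the labels' protocols. Nothing says that replicates of a genotype came from separate litters, and p-values measure only the spread between these samples.

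Of 58204 listed transcripts 57452 matched GENCODE M21, 57008 of them under the same version. The rest carried 0.195% to 0.265% of the reads and were left out. These counts were summed per gene and rounded. The main test was the quasi-likelihood test of edgeR 4.0.16 (robust, TMM, filterByExpr) in R 4.3.3 on 6 Knockout and 5 Wild-Type libraries, with Benjamini-Hochberg adjustment over 12716 genes at 0.05. The filter removed at most 0.0698% of a library's reads, and the biological coefficient of variation over all genes was 24.1%. DESeq2 1.42.0, limma 3.58.1 on the authors' values (log2 of value + 1, mean of at least 10), other scalings, length offsets, no filter and single left-out libraries were alternatives. Log2 CPM used a prior count of 2. Ratio tests used all 462 splits and correlation tests 100000 pairings, in scipy 1.17.1. The scripts were tested on simulated counts. Libraries of 1 genotype differed beyond sampling noise in all 25 combinations (chi-square per degree of freedom 22.1 to 96.4). The labels name no sequencing batch or date.

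The members and lists were chosen with earlier results of these data known. Named genes were the members and the 3 genes most like each by r (predicted genes passed over). In each list of genes with related roles they were those that passed the threshold or otherwise the 3 with the smallest p. Caseins, Lalba, Tsc1, Wfdc18, Tfrc, Tbrg4 and single lymph node markers are named in addition. Promoter windows are from RefSeq, where 3 of the 4 members had one. The Lao1 window is not printed because it lies in the first exon of GENCODE.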

Additional observations from a re-analysis of the deposited data

Results flagged for a closer look

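Outlying samples were looked for in 30 sets of values with Dixon's criterion, which chance alone meets in about 1 set in 20, and 3 sets met it. The Glycam1 TPM of Wild-Type 5 was 3776, against 2141 to 2517 in the other Wild-Type libraries. The log2 ratio of Wap to Glycam1 in Wild-Type 5 was 5.52, against 6.23 to 6.35 in the other Wild-Type libraries, and it shares its Glycam1 value with the first. In Knockout 5 the 4 whey genes held 14.8% of the reads, while the remaining Knockout glands had between 17.01% and 17.99%. Knockout 5 had the lowest Trf of all libraries at 64749 CPM and the highest Lao1 of the Knockout libraries at 6091 CPM.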

How the results depend on the processing

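The log2 fold changes of the 4 genes stayed below 0 and short of the adjusted threshold in all 8 alternatives with every library and in all 11 fits without 1 library. Over the former they ran from -0.34 to -0.13 for Wap, -0.29 to -0.07 for Trf, -0.56 to -0.36 for Lao1 and -0.32 to -0.11 for Glycam1. Over the latter they ran from -0.41 to -0.23, -0.35 to -0.21, -0.64 to -0.48 and -0.44 to -0.18, with edgeR adjusted p from 0.153 to 0.731. The number of genes called was 7 in the main test, 135 with DESeq2, 0 with the replicate block, and 0 to 28 without 1 library; it was 0 without Knockout 3 or Knockout 6, 2 without Knockout 1 or Wild-Type 3, 28 without Knockout 2, 14 without Wild-Type 4 and 13 without Wild-Type 1 or Wild-Type 5. The cause was not tested. DESeq2 called 2 other milk protein genes, 1 iron transport, 1 amino acid oxidation and 1 prolactin pathway gene and 2 adipocyte markers, against 0 each with edgeR and 0.96% of all 14058 genes with DESeq2.

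With the numbers in the titles as a replicate block, the log2 fold change was -0.34 for Wap, -0.29 for Trf, -0.56 for Lao1 and -0.22 for Glycam1, with edgeR adjusted p from 0.580 to 0.727. Deviations of same-numbered libraries correlated at -0.02, -0.10, 0.187, -0.22 and -0.21 for numbers 1 to 5, and only number 3 was most like its own partner. Correlations over all genes cannot show whether same-numbered libraries share more than a number.

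With library totals alone r was -0.034 for Wap and Trf, 0.550 for Wap and Lao1, -0.31 for Wap and Glycam1 and -0.18 for Trf and Lao1, and with log2 TPM it was -0.32, 0.318, -0.45 and -0.19; both settings were chosen after seeing the data. Without 1 library r ran from 0.547 to 0.750 for Wap and Trf, 0.782 to 0.919 for Wap and Lao1, 0.197 to 0.531 for Wap and Glycam1, 0.429 to 0.708 for Trf and Lao1, 0.290 to 0.734 for Trf and Glycam1 and 0.482 to 0.731 for Lao1 and Glycam1. Wap with Trf passed the adjusted threshold without Knockout 1 (0.750) and without Knockout 5 (0.693), Lao1 with Glycam1 without Knockout 1 (0.731), and Trf with Lao1 (0.708) and with Glycam1 (0.734) without Knockout 5. Without 1 library the genotype difference in log2 ratio ran from -0.14 to 0.039 for Wap to Trf, -0.17 to 0.14 for Wap to Glycam1 and -0.067 to 0.16 for Trf to Glycam1. The ratios of Wap to Lao1 (0.16 to 0.30), Trf to Lao1 (0.22 to 0.44) and Lao1 to Glycam1 (-0.38 to -0.12) kept their direction. The share of reads in the 4 genes differed by -1.85 to -0.878 points without 1 library. Reads of the 4 genes were between 27012 and 3729230 a library, so that the spread between libraries, not depth, limits their precision.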
